A study of Mus musculus with 16 samples.

Results

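A set of 6 genes of the autophagy core was followed through the blood and the tumour-infiltrating cells of mice that carried a hepatoma: the Atg8-family genes Gabarapl2, Gabarap, Gabarapl1, Map1lc3a and Map1lc3b, and Sqstm1, which encodes the autophagy receptor p62. The members were chosen by name, and each probe was assigned through the RefSeq identifier that the array files give for it. These 6 genes had 10 probes of the 41174 on the array, and all 10 were among the 26509 probes tested. Of these, 4 genes (Gabarapl2, Gabarap, Gabarapl1 and Map1lc3b) had 2 probes each, while Map1lc3a and Sqstm1 had 1 each. The high ratio of Gabarapl2 in blood and other earlier results of these data were known when the set was chosen. The blood ratios of the members are therefore given as a description, without a test. Tests of infiltrating cells against blood use those same ratios, so their p-values for the members are descriptive and give no independent support.

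The series consisted of 16 Agilent mouse microarrays with 2 colours. Female mice of strain C57Bl/6, described as athymic in the treatment notes, had received 10000000 cells of Hepa1-6, a mouse hepatoma line, under the skin, and blood and tumours were collected after 10 days. Blood RNA from these mice (8 arrays) and RNA of the tumour fraction enriched for infiltrating inflammatory cells by density gradient (8 arrays) were labelled with Cy5, and blood RNA from an untreated female C57Bl/6 mouse was labelled with Cy3 on every array. Blood went directly into RNAlater and was extracted with a different kit from that used for the infiltrating fraction, so tissue and extraction cannot be told apart in any comparison of the infiltrating fraction with blood. Each value below is a log2 ratio of Cy5 over Cy3, on which 1 equals a 2-fold difference and values above 0 are higher than in untreated blood. The untreated reference entered as 1 RNA, whose own spread between animals is left out. No dyes were swapped, so a dye bias of a probe remains in its ratio to the reference. Such a bias cancels between the infiltrating and blood arrays only if it is the same on both, which was not tested. The labels number the mice in each tissue without saying that a number marks the same animal in both, and p-values measure only the spread between these samples.

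Autophagy encloses cytoplasm in a double membrane that fuses with the lysosome. Atg8 proteins, the LC3 and GABARAP subfamilies in mammals, are cleaved and joined to a lipid of that membrane, where they bind receptors carrying cargo. p62 is one such receptor: it binds ubiquitinated cargo and LC3, and also binds KEAP1, the inhibitor of the transcription factor NRF2. In maturing red cells autophagy removes mitochondria and other organelles.

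Promoter sequence was examined for the 5 members that matched the RefSeq promoter table (build GRCm38.p6). The windows of Gabarapl2 (chr8:111940453-111940702, plus strand), Map1lc3b (chr8:121590188-121590437, plus strand) and Sqstm1 (chr11:50210821-50211070, minus strand) are shown because Gabarapl2 and Map1lc3b had the largest shifts between the tissues and Sqstm1 did not share them. Each is the 250 bases before the annotated transcription start, 5′ to 3′. Capitals mark the GC box GGGCGG and the cyclic AMP response element half-site TGACG, read on both strands.
Gabarapl2: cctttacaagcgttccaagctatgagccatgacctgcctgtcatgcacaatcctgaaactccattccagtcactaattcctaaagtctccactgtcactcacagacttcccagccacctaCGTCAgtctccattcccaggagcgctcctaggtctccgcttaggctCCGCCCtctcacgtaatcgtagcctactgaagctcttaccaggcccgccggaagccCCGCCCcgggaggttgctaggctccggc
Map1lc3b: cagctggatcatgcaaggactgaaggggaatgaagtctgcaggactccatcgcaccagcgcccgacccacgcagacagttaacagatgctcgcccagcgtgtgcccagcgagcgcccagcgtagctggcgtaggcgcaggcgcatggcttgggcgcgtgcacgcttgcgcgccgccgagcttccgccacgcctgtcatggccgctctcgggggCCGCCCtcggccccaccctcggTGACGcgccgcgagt
Sqstm1: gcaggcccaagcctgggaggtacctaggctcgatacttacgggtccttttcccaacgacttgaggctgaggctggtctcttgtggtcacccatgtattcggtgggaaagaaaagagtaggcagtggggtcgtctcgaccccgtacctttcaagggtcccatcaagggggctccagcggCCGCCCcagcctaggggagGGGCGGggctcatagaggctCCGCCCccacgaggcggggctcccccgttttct
No match to the E-box CACGTG, the longer CLEAR box that contains it, the GATA site AGATAA or the antioxidant response element core TGACNNNGC was present in the windows of Gabarapl2, Gabarap, Gabarapl1, Map1lc3b or Sqstm1. On either strand these motifs occurred in 6.02%, 0.24%, 9.99% and 10.2% of the 32851 promoters of the same length. GC boxes numbered 3 in Sqstm1, 2 in Gabarapl2, 2 in Gabarapl1, 1 in Map1lc3b and 0 in Gabarap, against a share of 32.7% of all promoters with at least 1. The half-site was present once each in Gabarapl2 and Map1lc3b and in no other of the 5 windows, and 17.8% of all promoters held it. The last pair of motifs was added after the first 4 gave no match, and a match is a run of letters and not a measured site.

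Some properties of the arrays bear on all values. Cy5 was well above background for 24.8% to 36.3% of probes on blood arrays and for 51.1% to 65.8% on infiltrating-cell arrays, and for 41.0% to 51.1% in the Cy3 reference. Total Cy5 signal was 8963306 to 20594590 on blood arrays and 35692908 to 148748757 on infiltrating-cell arrays, whereas total Cy3 signal stayed between 12684190 and 21804685. Loess normalization removes such an overall gap, so a member's ratio is relative to other probes of its brightness on the array. Arrays of the 2 tissues correlated between -0.31 and -0.08 over the tested probes, and the labels state the dyes, so the direction was kept. The Cy3 channel also moved with the tissue in Cy5: Afp, a hepatoma transcript that is bright in the infiltrating fraction (Cy5 67254 to 342713), read 118 to 150 in Cy3 on blood arrays and 2235 to 4883 on infiltrating-cell arrays, although the reference RNA is labelled as the same kind. The part of such a shift in the members' ratios was not tested, and the members' Cy3 signals are given below where they moved.

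The GABARAP subfamily acts mainly late in autophagosome formation, and GABARAPL2 (also called GATE-16) additionally takes part in traffic within the Golgi. Gabarapl2 was the member with the highest ratio in blood and one of those with low ratios in infiltrating cells. On its brighter probe, A_51_P517982, the log2 ratio in blood of tumour-bearing mice ran from 2.51 through a median of 2.88 to 3.08, with a mean of 2.85 ± 0.17 (SD, n = 8). The same probe ran from -3.09 through -2.93 to -2.34 in infiltrating cells, with a mean of -2.80 ± 0.27 (SD, n = 8). No blood array overlapped any infiltrating-cell array, and the 2 groups lay on opposite sides of untreated blood. The share of all probes that separated the 2 groups without overlap is not given, here or for the members below.

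Background-subtracted Cy5 signals of this probe were 28089.5 to 78225 in blood, with a median of 44597, and 4067 to 10405 in infiltrating cells, with a median of 7764. Cy3 signals of the reference lay between 5811 and 9585 over all 16 arrays, a ratio of highest to lowest of 1.65. Cy5 separated the groups, while the reference stayed within this range. In infiltrating cells Gabarapl2 was lower than in untreated blood (log2 difference -2.80, 95% interval -2.999 to -2.61, 6.97-fold, limma adjusted p = 2.9e-09). Centred on the array median without loess, that difference was -0.64, under 2-fold. The infiltrating cells were below the blood of tumour-bearing mice in this probe by a log2 difference of -5.66 (interval -5.88 to -5.43), a 50.5-fold difference given without a test because the blood level guided the choice.

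The dimmer Gabarapl2 probe, A_52_P2015, gave smaller differences in the same directions. Its ratio in blood was 0.02 to 0.62, with a median of 0.27 and a mean of 0.28 ± 0.19 (SD, n = 8). In infiltrating cells it was -1.18 to -0.08, with a median of -0.91 and a mean of -0.77 ± 0.41 (SD, n = 8), and the groups did not overlap. This value differed from the reference (limma adjusted p = 4.5e-04) but by less than 2-fold. It was -1.80 (limma adjusted p = 1.1e-07) with the deposited ratios and -1.69 with plain subtraction, both over 2-fold, and -0.13 (limma adjusted p = 0.14) with median centring. The probe was dim, with Cy5 signals of 32.5 to 93.5 in blood and 59 to 139.5 in infiltrating cells, yet well above background on every array. Before normalization its Cy5 signal thus ran higher in infiltrating cells, opposite to its ratio.

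Disagreement between the pair of Gabarapl2 probes was large for this array. The brighter exceeded the dimmer by 2.58 ± 0.29 in blood (SD, n = 8) and differed from it by -2.03 ± 0.58 in infiltrating cells (SD, n = 8), as log2 ratios. These gaps hold for the background correction used, since the dimmer probe moved with it. Among the 4049 genes with several tested probes, the median gap between the highest and lowest probe was 0.14 in blood, and 0% of genes had a larger gap than Gabarapl2. In infiltrating cells 3.04% of genes had a larger one. The size of the Gabarapl2 shift in blood therefore rests on 1 probe, while its direction was shared by both with loess. With median centring the dimmer probe was at -0.06 in blood and its difference between the tissues at -0.07.

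**Figure D1:**
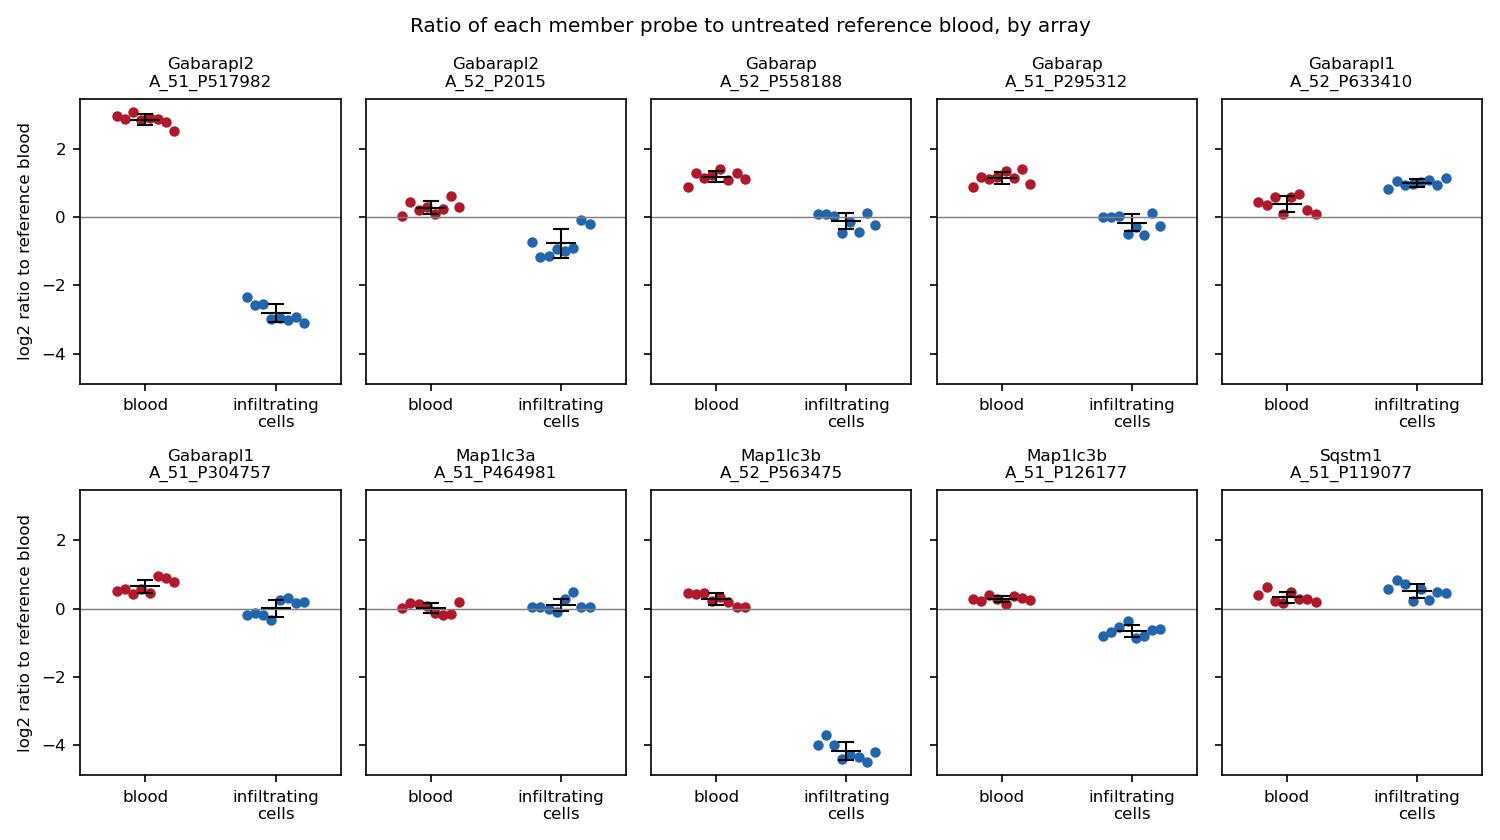
Log2 ratio of Cy5 over the untreated-blood reference in Cy3 for all 10 probes, 1 point per array, with 8 blood and 8 infiltrating-cell arrays and lines at the group mean with its SD. The brighter Gabarapl2 probe lies at 2.51 to 3.08 in blood and at -3.09 to -2.34 in infiltrating cells, and the brighter Map1lc3b probe lies below -3.6 in every infiltrating-cell array.

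Gabarap, the founding member of the subfamily, had ratios above 0 in every blood array on both of its probes, and the probes gave close values. Probe A_52_P558188 ran from 0.89 through 1.19 to 1.41 in blood (mean 1.18 ± 0.16, SD, n = 8). In infiltrating cells it ran from -0.45 through -0.05 to 0.14 (mean -0.12 ± 0.24, SD, n = 8). All 8 blood arrays lay above 0 and above every infiltrating-cell array, whereas the infiltrating cells straddled 0, with 4 of 8 arrays above it.

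Infiltrating cells did not differ detectably from untreated blood in Gabarap (limma adjusted p = 0.21, 95% interval of the log2 difference -0.29 to 0.06). They were below the blood of tumour-bearing mice by a log2 difference of -1.30 (interval -1.504 to -1.09, 2.46-fold, limma adjusted p = 1.8e-09). This difference draws mainly on the blood ratio (mean 1.18), beside a mean of -0.12 in infiltrating cells. The other probe, A_51_P295312, had means of 1.15 in blood and -0.17 in infiltrating cells, and a difference of -1.32 (limma adjusted p = 2.4e-09). Raw Cy5 of the first probe was 763.5 to 1327 in blood and 2211 to 7970 in infiltrating cells, with Cy3 at 514.5 to 789. Both directions in infiltrating cells turned with the centring: with median centring Gabarap was 1.95 above the reference and 1.42 above blood, and with centring on the spike-in controls 1.32 and 0.76. Its blood ratio was also smaller then, at 0.53 and 0.56.

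Gabarapl1, also named Gec1, was higher in infiltrating cells than in untreated blood. Its brighter probe, A_52_P633410, ran from 0.08 through 0.41 to 0.69 in blood (mean 0.38 ± 0.23, SD, n = 8) and from 0.81 through 1.0003 to 1.16 in infiltrating cells (mean 1.0001 ± 0.11, SD, n = 8). The groups did not overlap. Cy5 signals were 1443.5 to 5056 in blood arrays and 17353 to 107681 in infiltrating-cell arrays. Cy3 signals of the reference moved too, at 2322.5 to 3087 on blood arrays and 3074.5 to 3668 on infiltrating-cell arrays. The part of this move in the ratio was not tested.

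In infiltrating cells Gabarapl1 was just at the 2-fold threshold over untreated blood (log2 difference 1.0001, interval 0.895 to 1.11, limma adjusted p = 5.2e-08). It fell just under 2-fold, at 0.978 to 0.997, when mouse 890, 894, 896 or 898 was left out, and at 0.94 within the first slide of 4 arrays. Centred without loess it was far higher, at 3.21 (limma adjusted p = 8.0e-08) on the array median and 2.58 on the spike-in controls. No p is given for the latter, since limma gave all member probes the same standard error there (0.24). That error is not the spread of this probe. Against the blood of tumour-bearing mice the excess was 0.62 (interval 0.43 to 0.80, limma adjusted p = 7.2e-06), under 2-fold. In blood its sign turned with median centring, to -0.18.

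The dimmer Gabarapl1 probe, A_51_P304757, went the other way between the tissues. Its mean was 0.65 ± 0.20 in blood and 0.01 ± 0.25 in infiltrating cells (SD, n = 8 each), and the difference of infiltrating cells from blood was -0.64 (limma adjusted p = 3.6e-05), under 2-fold. That difference was over 2-fold with plain subtraction, at -1.87, and with the deposited ratios, at -2.49, and turned to 0.91 when centred on the array median and 0.25 on the spike-in controls. Its Cy5 signal was 34 to 71 in blood and 229 to 1629 in infiltrating cells. Its Cy3 reference signal was 14.5 to 32 on blood arrays, well above background on 5 of 8, and 63.5 to 150.5 on infiltrating-cell arrays. The part of this shift of the reference in the ratio was not tested. The ratio also differed between the slides of infiltrating cells, at -0.21 on the first and 0.24 on the second (n = 4 each).

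LC3 proteins elongate the membrane and are the usual marker of autophagosomes. Map1lc3b, which encodes LC3B, was close to untreated blood in the blood of tumour-bearing mice and far below it in infiltrating cells on its brighter probe. That probe, A_52_P563475, ran from 0.04 through 0.27 to 0.46 in blood (mean 0.27 ± 0.18, SD, n = 8). In infiltrating cells it ran from -4.49 through -4.24 to -3.69 (mean -4.18 ± 0.27, SD, n = 8). No arrays of the 2 groups overlapped.

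Cy5 signals of this probe were 15843 to 41543 in blood and 4725 to 18245 in infiltrating cells, while Cy3 signals were 19862 to 29126. Infiltrating cells were 18.1-fold below untreated blood (log2 difference -4.18, interval -4.37 to -3.98, limma adjusted p = 1.6e-10) and 21.8-fold below the blood of tumour-bearing mice (log2 difference -4.45, limma adjusted p = 1.1e-16). With median centring both remained lower, at -1.96 and -1.87.

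The dimmer Map1lc3b probe, A_51_P126177, had the same signs and much smaller sizes. It averaged 0.29 ± 0.08 in blood and -0.65 ± 0.16 in infiltrating cells (SD, n = 8 each), and the groups did not overlap. Infiltrating cells were below untreated blood (limma adjusted p = 7.8e-06) and below the blood of tumour-bearing mice (log2 difference -0.94, limma adjusted p = 1.3e-09), both under 2-fold. Its raw Cy5 signal was in fact higher in infiltrating cells, 5200 to 24286 against 839 to 2195 in blood, and its direction turned without loess: with median centring it was 1.4997 above the reference and 1.82 above the blood of tumour-bearing mice (limma adjusted p = 8.9e-07 for the latter), and with spike-in centring 0.87 and 1.17. Its Cy3 signals were 1419 to 2073 on blood arrays and 2370 to 3137 on infiltrating-cell arrays. The pair of probes agreed in blood (gap -0.01 ± 0.19) and differed by -3.52 ± 0.34 in infiltrating cells (SD, n = 8), where 0.445% of genes with several probes had a larger gap.

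Map1lc3a, which encodes LC3A, was near background in blood. Its single probe, A_51_P464981, was well above background in Cy5 on 1 of 8 blood arrays and 8 of 8 infiltrating-cell arrays, with Cy5 signals of 5.5 to 31.5 and 142.5 to 540. The ratio ran from -0.18 through 0.05 to 0.21 in blood (mean 0.02 ± 0.16) and from -0.08 through 0.05 to 0.47 in infiltrating cells (mean 0.11 ± 0.18; SD, n = 8 each). The groups overlapped. Neither test passed the threshold: against untreated blood the adjusted p of limma was 0.14 (interval -0.03 to 0.25), and against the blood of tumour-bearing mice it was 0.33 (interval -0.08 to 0.27). With median centring these differences were 0.99 (limma adjusted p = 1.2e-04) and 0.93 (limma adjusted p = 4.3e-05), and with the deposited ratios the first was 0.67 (limma adjusted p = 0.0010), all under 2-fold. Its Cy3 signal, 10 to 21 on blood arrays and 27 to 51 on infiltrating-cell arrays, moved too.

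Sqstm1, the p62 gene, was modestly above untreated blood in both tissues. Probe A_51_P119077 ran from 0.17 through 0.27 to 0.64 in blood (mean 0.34 ± 0.16, SD, n = 8) and from 0.24 through 0.53 to 0.85 in infiltrating cells (mean 0.52 ± 0.21, SD, n = 8). All 16 arrays were above 0, and the groups overlapped. In infiltrating cells the rise was 1.43-fold (log2 difference 0.52, interval 0.36 to 0.68, limma adjusted p = 1.3e-04), and the difference between infiltrating cells and the blood of tumour-bearing mice was 0.18 (interval -0.01 to 0.37, limma adjusted p = 0.085).

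Raw Cy5 signals of Sqstm1 differed far more than these ratios, from 2565 to 6143 in blood (median 4314) and from 23423 to 93176 in infiltrating cells (median 58266), with Cy3 at 3542 to 5423. The size of its excess depended on the centring. With median centring Sqstm1 was 2.73 above untreated blood and 2.93 above the blood of tumour-bearing mice, and with spike-in centring 2.10 and 2.27. Its blood ratio turned to -0.19 and -0.17 under the same centrings.

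**Figure D2:**
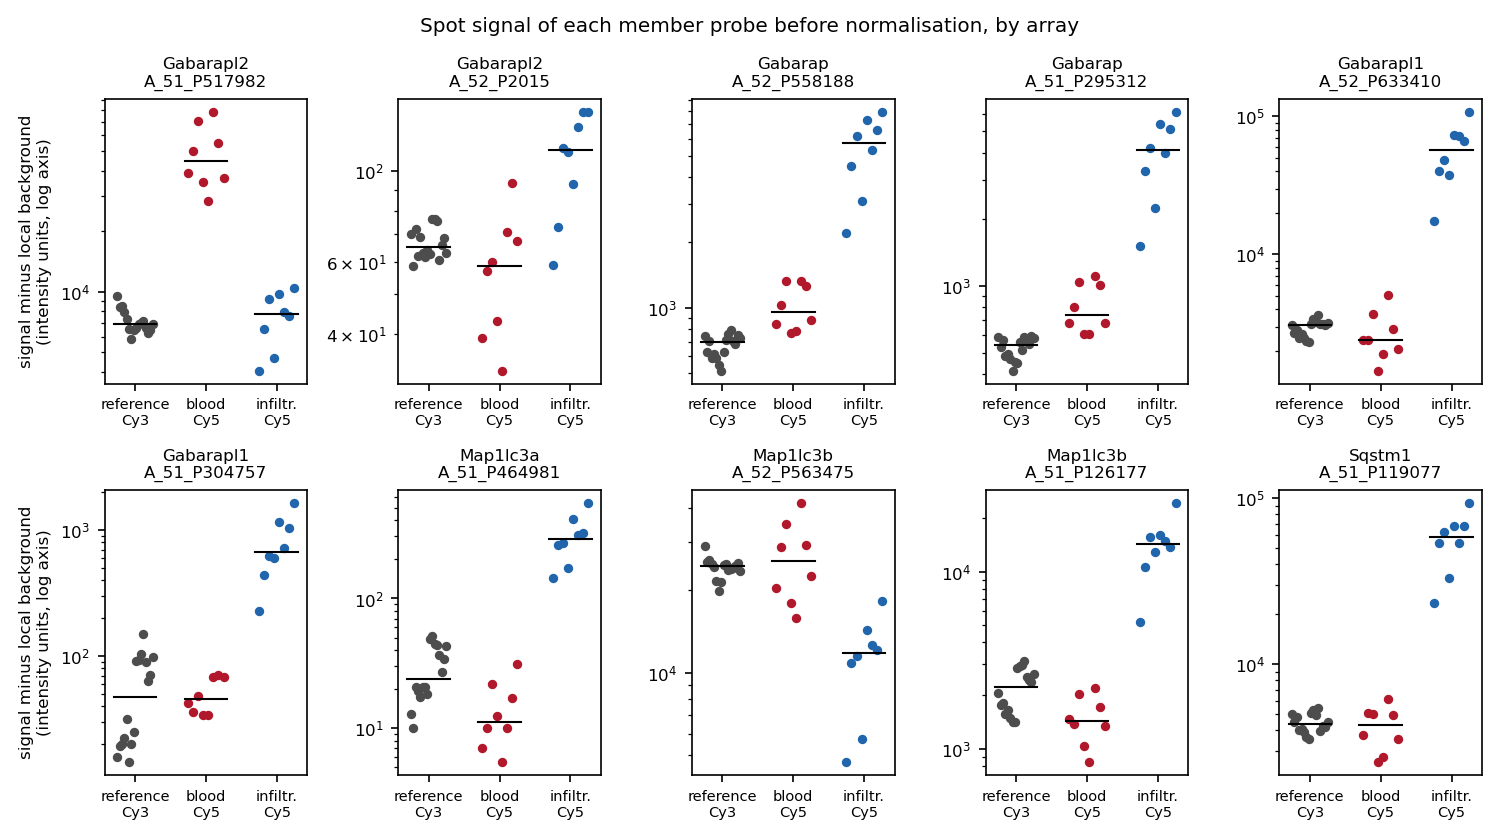
Background-subtracted spot signals of each probe on a logarithmic axis, 1 point per array, for the Cy3 reference over 16 arrays, Cy5 in 8 blood and Cy5 in 8 infiltrating-cell arrays, with lines at the medians. Cy5 of the brighter Gabarapl2 probe falls from a median of 44597 in blood to 7764 in infiltrating cells, while Cy5 of Sqstm1 goes from 4314 to 58266.

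**Figure D3:**
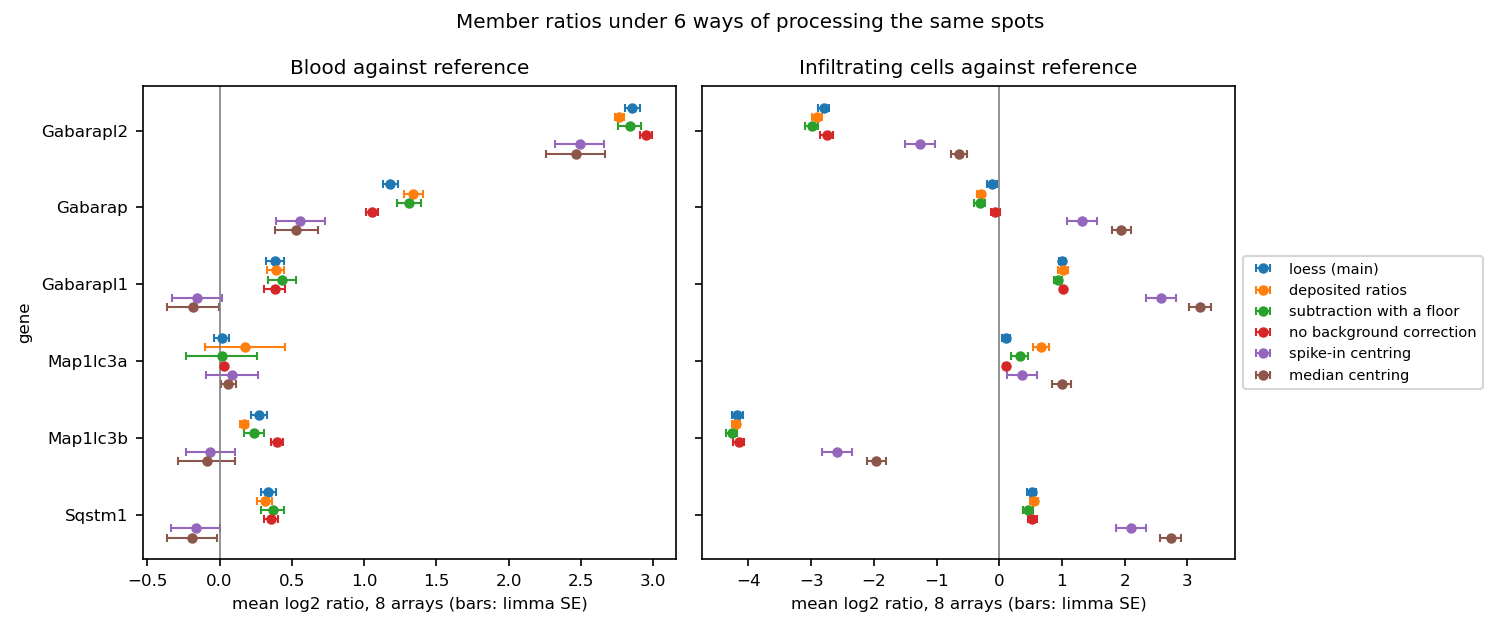
Mean log2 ratio of the brighter probe of each gene under loess and 5 alternative ways of correcting and centring the arrays, for blood (left) and infiltrating cells (right) over the reference, with bars for the standard error from limma. Gabarapl2 and Map1lc3b stay below 0 in infiltrating cells in every setting shown, whereas Gabarap changes sign with median and spike-in centring.

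Counted over the set, 3 of the 6 members passed both thresholds between infiltrating cells and untreated blood on their brighter probe: Gabarapl2 and Map1lc3b were lower and Gabarapl1 higher. Among all 12311 genes 19.4% did so, with 9.32% higher and 10.1% lower. Between infiltrating cells and the blood of tumour-bearing mice, 2 of the 5 members tested passed, Gabarap and Map1lc3b, both lower, against a background of 23.8% of all genes, 11.8% lower. With so few members these shares are only descriptive. On the other probe of the genes that had 2, 0 members passed in the first comparison and 1 in the second. In blood against the reference 0.747% of all genes passed in either direction. Nothing is read from this for the members.

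The members did not move together. Between infiltrating cells and the blood of tumour-bearing mice, the log2 differences of the brighter probes were -5.66 for Gabarapl2, -4.45 for Map1lc3b, -1.30 for Gabarap, 0.62 for Gabarapl1, 0.18 for Sqstm1 and 0.09 for Map1lc3a. Gabarap alone of the first 3 changed its sign when the arrays were centred on their median. In the Cy5 channel alone after loess, where values are again relative to other probes, the differences of Gabarapl2, Map1lc3b and Gabarap were -5.76, -4.11 and -1.68, whereas the raw Cy5 of Gabarap ran higher in infiltrating cells.

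Genes whose ratio followed that of Gabarapl2 most closely over the 16 arrays were low in infiltrating cells. They were Rnf10 (a ring-finger protein gene, r = 0.999), Ccndbp1 (a cyclin D-binding protein gene, r = 0.998), Ube2o (a ubiquitin-conjugating enzyme active in reticulocytes, r = 0.998), Glrx5 (an iron-sulphur cluster assembly factor, r = 0.998) and Map1lc3b (r = 0.998). Mean ratios of Rnf10 were 1.496 in blood and -3.70 in infiltrating cells, and those of Ube2o were 0.34 and -6.44. These correlations are set by the gap between 2 clusters of arrays and are a description of likeness. For Sqstm1 the closest genes were Osbpl2 (r = 0.866), Mcat (r = 0.863), Pcmtd1 (r = 0.845), Trabd (r = 0.839) and Zfp960 (r = 0.833), with blood means of -0.44 to 0.36 and infiltrating-cell means of -0.20 to 0.57.

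Cell type markers differed between the tissues, and in bulk RNA fewer cells of a type and less RNA per cell cannot be told apart. Of 12 erythroid markers tested, 0 passed in blood, where their median log2 ratio was 0.36, and 11 were lower in infiltrating cells, with a median of -4.89. Their share of the Cy5 signal was 5.12% to 7.75% in blood, 0.268% to 0.415% in infiltrating cells and 4.42% to 8.09% in the reference. The brightest, Alas2 of haem synthesis, was at 0.68 in blood and -4.32 in infiltrating cells, beside 2.85 and -2.80 for Gabarapl2 and 0.27 and -4.18 for Map1lc3b. No Cy5 signal well above background was found in any infiltrating-cell array for 3 of the erythroid markers. The part of red-cell RNA in the ratios of Gabarapl2 and Map1lc3b was not tested.

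Other lists moved as well. Neutrophil markers had a median of 0.93 in blood, with 4 of 9 higher, and -0.98 in infiltrating cells, with 4 lower. Their brightest, S100a9, was at 0.93 and -2.999. With median centring 1 was higher in blood, and in infiltrating cells the median turned to 0.24 with 1 higher and 0 lower. Platelet markers had medians of -0.04 and -4.06, with 3 of 8 higher in blood and 7 lower in infiltrating cells, and their brightest was Pf4. B cell markers, led by Blnk, had medians of -1.10 and -2.94, with 3 of 6 lower in blood and 6 lower in infiltrating cells. T cell markers (7 tested, brightest Lck) gave no call in either tissue against the reference, with medians of -0.07 and -0.49. With median centring 2 T cell markers were lower in blood and 4 higher in infiltrating cells, where the median turned to 1.05, and spike-in centring gave 1 lower and 2 higher. Erythroid, platelet and B cell medians in infiltrating cells stayed below 0 under both centrings, at -2.98, -2.38 and -1.55 on the array median, whereas the erythroid median in blood turned to -0.09. Macrophage markers were at -0.01 in blood and 1.12 in infiltrating cells, where 6 of 8 were higher, among them Adgre1, the brightest, at 1.19. Hepatoma and hepatocyte markers, 4 of 8 higher in infiltrating cells with Afp at 2.95, took 0.000531% to 0.00125% of Cy5 signal in blood and 0.323% to 0.547% in infiltrating cells. The Cy3 signal of Afp was itself higher on infiltrating-cell arrays, and the part of this in its ratio was not tested. In no blood array was Cy5 well above background for 4 of the 8 macrophage markers and 6 of the 8 hepatoma and hepatocyte markers. Blood values of those markers lie near the floor. The part of tumour RNA in the higher Gabarapl1 and Sqstm1 signals was not tested.

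Other genes of the pathway were taken from 5 lists with 66 genes, of which 61 were tested. In blood against the reference 1 was higher and 0 lower, where 0.504% of all genes were higher, with a list median of 0.01 beside -0.02 for all genes. In infiltrating cells against the reference 5 were higher and 10 lower, where 9.32% of all genes were higher and 10.1% lower (median 0.00 beside 0.05 for all genes). Against the blood of tumour-bearing mice 7 were higher and 14 lower, where 12.1% and 11.8% of all genes were (median -0.02 beside 0.08). The counts of 5 and 7 higher include Slc7a11, which passed the filter only through the infiltrating-cell arrays, where it is high. The same shares of all genes stand behind the counts of each list below. The split turned with the centring: median centring gave 39 higher and 4 lower against the reference and 41 and 4 against blood, spike-in centring gave 25 and 6, and 31 and 5, and the deposited ratios gave 11 and 12, and 12 and 15. With spike-in centring limma gave all member probes the same standard error, 0.24 against the reference and 0.30 against blood. Counts of calls with that centring, here and throughout, are therefore descriptive. All genes moved too, to medians of 1.20 and 1.45 with median centring and 0.57 and 0.80 with spike-in centring, so the loess values below are relative to the bulk of genes.

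In the list of initiation and nucleation complexes (16 tested), 1 gene passed in blood: Wipi1, which binds phosphatidylinositol 3-phosphate on the forming membrane, ran from 0.71 to 1.65 and averaged 1.33 (SE 0.080, limma adjusted p = 9.5e-09). Its other probe was at 0.61 and the gene at 0.68 with median centring. In infiltrating cells against the reference 1 gene was higher, Vmp1, a membrane protein of the endoplasmic reticulum (1.05 on 1 probe, limma adjusted p = 1.8e-06, and 0.22 on the other), and 1 was lower. The latter was Becn1, the beclin 1 subunit of the lipid kinase complex, at -3.13 to -2.41 (mean -2.75, SE 0.091, limma adjusted p = 3.8e-09). With median centring Becn1 was at -0.70, and the call was lost. Against the blood of tumour-bearing mice Vmp1 was higher by 1.11, and Becn1 and Wipi1 were lower, at -2.95 and -2.13. With median centring Becn1 was at -0.29 and no longer called, and Wipi1 turned to 0.21.

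Enzymes that process and conjugate Atg8 proteins (10 tested) gave no call in blood and 0 higher and 3 lower in infiltrating cells against the reference. Atg4a, a protease that exposes the end of Atg8 proteins for lipid attachment, was at -4.43 to -2.42 (mean -3.83, SE 0.21, limma adjusted p = 1.8e-07). Atg12, a ubiquitin-like protein of the conjugation machinery, was at -1.92 with its 3 probes between -1.92 and -1.69 (limma adjusted p = 1.8e-08), and turned to 0.21 with median centring. Against the blood of tumour-bearing mice 2 genes were higher and 3 lower. Atg4c, another protease, was higher by 1.14 (0.03 on its other probe) and Atg5, the conjugation partner of Atg12, by 1.004, at the threshold, while Atg4a and Atg12 were lower, at -4.15 and -2.49. Atg12 again turned, to 0.21.

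Autophagy receptors other than p62 (12 tested) gave no call in blood, and 1 was higher and 4 lower in infiltrating cells against the reference. Bnip3, a mitophagy receptor induced by hypoxia, ran from 2.67 through 3.47 to 4.21 (mean 3.40, SE 0.17, limma adjusted p = 7.7e-08). Bnip3l, or Nix, the mitophagy receptor of maturing reticulocytes, ran from -5.85 through -5.24 to -4.77 (mean -5.28, SE 0.12, limma adjusted p = 2.2e-10). Ncoa4, the receptor for ferritin, ran from -6.47 through -6.09 to -5.73 (mean -6.15, SE 0.083, limma adjusted p = 3.3e-11), with its other probes at -3.70 and -4.34. Between infiltrating cells and the blood of tumour-bearing mice 1 was higher, Bnip3 by 3.25, and 5 were lower, among them Ncoa4 at -6.10 and Bnip3l at -5.85. With median centring Bnip3 was at 5.47 above the reference and Bnip3l and Ncoa4 at -3.03 and -3.96.

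Partners of p62 with KEAP1 and NRF2 targets (13 tested) gave no call in blood, and 3 higher and 2 lower in infiltrating cells against the reference. Txnrd1, thioredoxin reductase, was higher by 1.82 (SE 0.073, limma adjusted p = 1.6e-08) and Nfe2l2, which encodes NRF2, by 1.26 (SE 0.063, limma adjusted p = 8.8e-08), with 1.09 on its other probe. Slc7a11, a cystine transporter, was the other higher gene, and no fold is given because its probe was well above background in neither the blood nor the reference. It passed the filter only through the infiltrating-cell arrays, so its place among the higher genes, against the reference and against blood, is no support. Gclm, the modifier subunit of glutathione synthesis, was at -4.27 (SE 0.23, limma adjusted p = 1.7e-07), and Srxn1, sulfiredoxin, at -1.38 (SE 0.13, limma adjusted p = 1.1e-05). The other probes of Srxn1 were at -0.42 and -0.70, and with median centring the gene turned to 0.68. Against the blood of tumour-bearing mice 3 were higher and 3 lower: Txnrd1 was at 2.004, Nfe2l2 at 1.38, Gclm at -4.58 and Srxn1 at -1.59. With loess the called genes of this list thus lay in both directions. Median centring gave 9 higher and 1 lower against the reference and 11 and 1 against blood. Spike-in centring gave 7 and 1, and 9 and 1.

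Fusion and lysosomal regulators (10 tested) gave no call in either tissue over the reference with loess, with medians of -0.04 and 0.06. With median centring 8 were higher in infiltrating cells against the reference (median 1.56), and with spike-in centring 4 were (median 0.93). In blood each of these centrings gave 1 lower. Against the blood of tumour-bearing mice they gave 9 and 6 higher. With loess, 0 were higher and 1 lower against that blood: Snap29, a SNARE of autophagosome and lysosome fusion, at -1.08 (limma adjusted p = 2.2e-07). Its other probes, at -0.94 and -0.86, were under 2-fold, and with median centring it turned to 1.63. Lamp1, the brightest of the list, was at 0.43 in that comparison. No gene among the 31 measured by more than 1 probe had its probes called in both directions, but signs and sizes could differ. Lamp2, a lysosomal membrane protein named here after its values were seen, was at -0.49 on the probe used and at 1.78, a call, on its other probe in infiltrating cells against the reference.

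**Figure D4:**
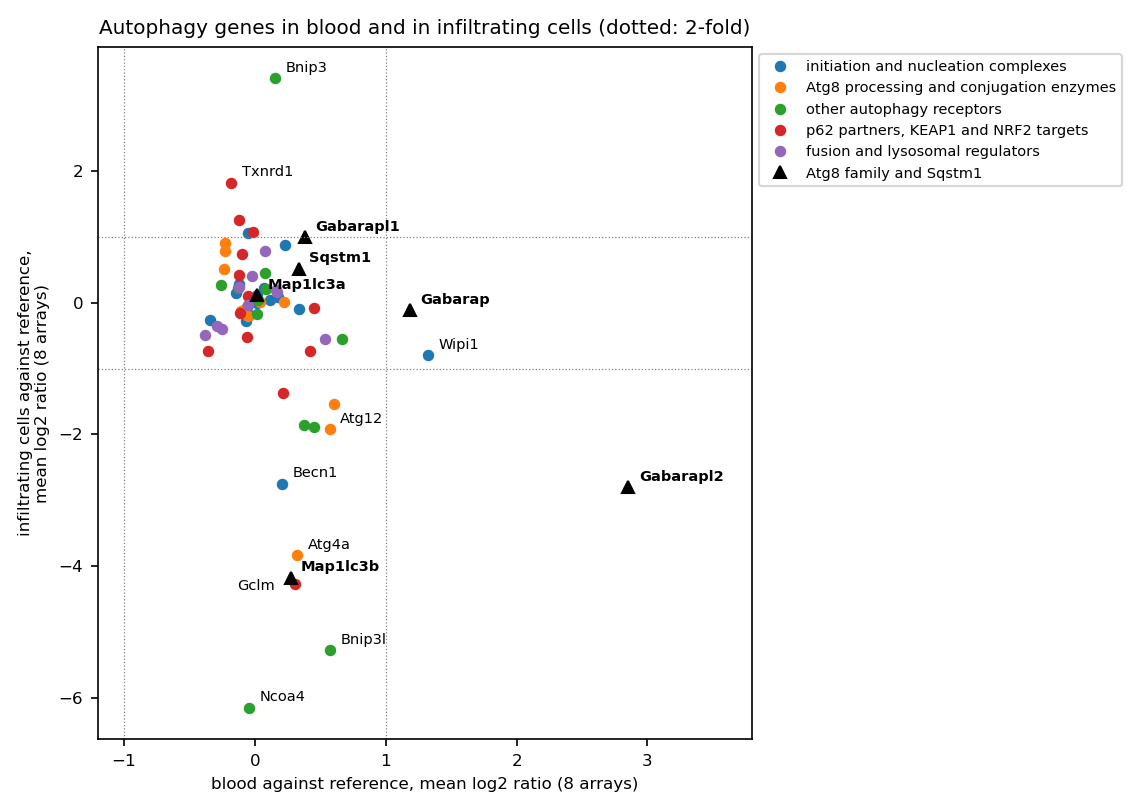
Mean log2 ratio in blood (horizontal) against that in infiltrating cells (vertical), both over untreated blood, for the 61 tested genes of the 5 lists (dots) and the 6 members (triangles), with dotted lines at 2-fold. Gabarapl2 stands at 2.85 and -2.80, Map1lc3b lies at -4.18 near Atg4a and Gclm, and Ncoa4 and Bnip3l lie lowest, at -6.15 and -5.28.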

How the data were processed

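The 16 scanner files hold, per the file headers, median spot and background intensities from Agilent Feature Extraction 10.5.1.1 (9.1.3.1 per the submitters' processing notes) and the authors' log10 ratio of Cy5 over Cy3. The deposited value table repeated these log10 ratios exactly. The intensities were background-corrected with normexp (offset 50) and normalized by loess within arrays, leaving out control spots and 87 to 153 outlier-flagged spots per array, in R 4.3.3 with limma 3.58.1. No spot was saturated. Spots of a probe were averaged. A probe was kept if it was well above background in Cy5 for 4 or more of a group's 8 arrays, or in Cy3 for 8 or more of all 16 (26509 of 41174, covering 12311 genes). A gene is its brightest tested probe. lmFit and eBayes gave p-values adjusted by Benjamini-Hochberg over all tested probes, and a call needed adjusted p under 0.05 and 2-fold.

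Signals quoted as Cy5 or Cy3 are spot minus background intensities, and the number of arrays limits the precision. The rule for named genes was: all member probes, per list and comparison the 2 largest rises and 2 largest falls among called genes, the 5 genes most correlated with Gabarapl2 and with Sqstm1, and the brightest marker per cell type. Members and lists were chosen with earlier results of these data known. The fit was tested on simulated data. Alternatives covered background, centring, filter, slide, replicate block, probe choice and leaving out each mouse.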

Additional observations from a re-analysis of the deposited data

Results flagged for a closer look

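The probes below either had every blood array above untreated blood and every infiltrating-cell array below it, or had a tested difference between the tissues that passed both thresholds. The share of all probes with the first pattern is not given, and 23.8% of all genes passed both thresholds between the tissues. Earlier results of these data were known when the members were chosen, so both patterns are descriptive and give no independent support. Gabarapl2 differed between infiltrating cells and blood by -5.66 on probe A_51_P517982 and by -1.05 on probe A_52_P2015, with all 8 blood arrays above 0 and all 8 infiltrating-cell arrays below it. The difference was not tested for this gene. Gabarap differed by -1.30 on probe A_52_P558188 and -1.32 on probe A_51_P295312, and both differences passed the test. Map1lc3b differed by -4.45 on probe A_52_P563475, which passed the test, and by -0.94 on probe A_51_P126177, where all 8 blood arrays were above 0 and all 8 infiltrating-cell arrays below it and the difference, tested by limma (adjusted p = 1.3e-09), was under 2-fold. Centred on the array median, Gabarap turned to 1.42 and 1.36 and the latter Map1lc3b probe to 1.82. No array stood apart from its group in the 20 tests of a single high or low value on the 10 probes.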

How the results depend on the processing

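The centring moved most values. Median centring without loess gave a median blood ratio of -0.015 over the members. Against the reference it put Gabarapl2 in infiltrating cells at -0.64 (under 2-fold), Gabarap at 1.95 (reversed) and Sqstm1 at 2.73, with 43 list genes called in place of 15. Against blood it gave Gabarapl2 -3.10, Gabarap 1.42 (reversed), Gabarapl1 3.39 and Sqstm1 2.93, with 4 members and 45 list genes called in place of 2 and 21. Spike-in centring gave a median blood ratio of 0.012 over the members. Against the reference it gave Gabarap 1.32 (reversed) and Sqstm1 2.10, with 5 members and 31 list genes. Against blood it gave Gabarapl2 -3.76, Gabarap 0.76 (reversed), Gabarapl1 2.73 and Sqstm1 2.27, with 36 list genes. The cause of these moves was not tested. Spike-in calls are descriptive, since limma gave all member probes the same standard error within each of these comparisons. Over all genes, calls in the blood, reference and tissue comparisons numbered 92, 2392 and 2935 with loess, 894, 7260 and 7711 when centred on the median, 803, 5755 and 6773 when centred on spike-ins and 956, 5764 and 7011 with the deposited ratios.

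In blood, list calls numbered 5 with the deposited ratios, 2 with plain subtraction and 0 with the median over probes, in place of 1, and the deposited ratios gave 23 list calls in infiltrating cells against the reference. Gabarapl1 over the reference was 0.93 with plain subtraction and 0.94 on the first slide, both under 2-fold. Map1lc3a against blood was -0.093 on the first slide (reversed, not called). The other probe put infiltrating cells against the reference at -0.77 for Gabarapl2, 0.013 for Gabarapl1 and -0.65 for Map1lc3b, with 0 members called, and against blood at -1.05, -0.64 (reversed for Gabarapl1) and -0.94, with 1 member called. Leaving out 1 mouse changed 1 member's call, that of Gabarapl1 against the reference (0.98 to 1.03), and list calls ranged from 14 to 15 against the reference and from 20 to 21 against blood.

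Mouse numbers occur in both tissues, but no label says that a number marks the same animal, and they were not treated as pairs. Same-numbered samples correlated between -0.17 and 0.20 and over 0.1 for 4 of 8, and 5 of 8 matched their own number best. These correlations do not settle whether the samples are paired. With the replicate block 2 members and 21 list genes were called against blood, as without it. Sqstm1 then had a limma adjusted p of 0.029 at under 2-fold, beside 0.085 without the block. Each slide held 1 tissue, so slide and tissue cannot be told apart, and slide as a random block changed no call. Low signal limited Map1lc3a in blood and the dimmer Gabarapl1 and Gabarapl2 probes.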
